A study of Mus musculus with 6 samples.

Results

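The 9 genes described here encode homeobox transcription factors of the ventral forebrain: Gsx1, Gsx2, Dlx1, Dlx2, Dlx5, Dlx6, Nkx2-1, Lhx6 and Lhx8. They were taken by symbol from a table of 17348 genes, and all 9 have a row in it. Cortical RNA of mouse embryos at E13.5 was sequenced, with 3 libraries from wild-type embryos (WT) and 3 from embryos with a conditional knockout of the RNA-binding protein gene Ybx1 (cKO). In the cKO embryos a floxed stretch of Ybx1 is removed where the Nestin-Cre transgene is active, which is in neural progenitors and so in the neurons that arise from them, dorsal and ventral alike, and the floxed line had been made in C57BL/6J eggs. The controls were littermates that the titles call WT and the count columns call Ctrl. Elsewhere in the study cKO stands for Nestin-Cre with Ybx1 fl/fl and Ctrl for Ybx1 fl/fl without Cre, so the control embryos may carry floxed alleles. Each library is named here by its genotype and replicate number. No source used here ties the replicates to separate embryos or litters one by one, so the p-values measure the spread between these libraries. The comparison asked how far transcripts of the ganglionic eminences and of the interneurons that leave them differ in a cortex that lacks Ybx1.

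In the embryonic forebrain, the cortex above makes excitatory neurons, while the lateral and medial ganglionic eminences (LGE and MGE) below make GABAergic neurons. Gsx2 and its paralog Gsx1 act in dividing LGE progenitors and turn on the Dlx genes there, whereas Nkx2-1 marks MGE progenitors and turns on Lhx6 and Lhx8. Interneurons then migrate tangentially from the eminences into the cortex. They keep Dlx1, Dlx2, Dlx5 and Dlx6 and, when born in the MGE, Lhx6, but they shut off Nkx2-1, and Lhx8 stays with neurons of the basal forebrain. In cortical RNA, the members therefore fall into 2 classes by textbook expression: 5 that migrating interneurons keep (Dlx1, Dlx2, Dlx5, Dlx6, Lhx6) and 4 that mark the eminences themselves (Gsx1, Gsx2, Nkx2-1, Lhx8). In such bulk RNA, more cells of a type and more RNA per cell cannot be told apart.

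All members bind DNA through a homeodomain, whose recognition helix reads the bases of the major groove. The stretch of the transcripts that codes for this helix is shown for the Gsx, Dlx and Lhx genes because it is what the members share, and because counts of related genes are only separable where their sequences differ. It was read from GENCODE M21 transcripts of the GRCm38 assembly, 5′ to 3′ on the coding strand, with capitals on the codons of the conserved stretch tryptophan, phenylalanine, glutamine, asparagine, any residue, arginine.
Gsx1: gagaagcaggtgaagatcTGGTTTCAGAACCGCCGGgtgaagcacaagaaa
Gsx2: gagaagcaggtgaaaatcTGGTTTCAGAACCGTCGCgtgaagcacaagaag
Dlx1: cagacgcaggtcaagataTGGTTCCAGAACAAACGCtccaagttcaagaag
Dlx2: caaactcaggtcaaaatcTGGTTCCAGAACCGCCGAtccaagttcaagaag
Dlx5: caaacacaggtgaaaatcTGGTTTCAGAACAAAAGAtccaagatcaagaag
Dlx6: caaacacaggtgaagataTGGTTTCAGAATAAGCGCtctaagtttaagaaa
Lhx6: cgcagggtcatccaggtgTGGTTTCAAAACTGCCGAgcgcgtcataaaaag
Lhx8: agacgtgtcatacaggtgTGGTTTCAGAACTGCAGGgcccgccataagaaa

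Over the whole homeobox, 40.0% to 86.1% of the bases were identical in the 36 pairs of members. Gsx1 and Gsx2 were the closest pair (86.1%), the Dlx genes shared 71.1% to 76.7% with each other, and Lhx6 and Lhx8 shared 74.4%. The longest run of identical bases between the transcripts of any pair was 24 bases (Gsx2 and Dlx5). The Dlx genes sit in convergent pairs. Dlx1 (Entrez gene 13390, chr2:71528113-71533981, plus strand) and Dlx2 (Entrez gene 13392, chr2:71543408-71546754, minus strand) lie 9426 bases apart. Dlx6 (Entrez gene 13396, chr6:6863334-6868568, plus strand) and Dlx5 (Entrez gene 13395, chr6:6877805-6882085, minus strand) lie 9236 bases apart. In the annotation Dlx1 overlaps the antisense gene Dlx1as, and Dlx6 overlaps Dlx6os1 and Dlx6os2 on the other strand. Whether the counting used strand is not given in the sources used here, so reads of Dlx1 and Dlx6 cannot be told apart from reads of these partners, which were not analysed here by themselves.

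The remaining members stand alone. Gsx1 (Entrez gene 14842, chr5:147188696-147190947) and Gsx2 (Entrez gene 14843, chr5:75075601-75077893) are both on the plus strand of chromosome 5. Nkx2-1 (Entrez gene 21869) is at chr12:56531958-56536908, Lhx6 (Entrez gene 16874) at chr2:36081953-36105408 and Lhx8 (Entrez gene 16875) at chr3:154306294-154330659, all on the minus strand. Nkx2-1 overlaps Gm26973 on the other strand and Lhx6 overlaps Gm27953 on its own strand. Coordinates are whole gene spans of GRCm38.

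The libraries held 15907486 to 16282921 estimated counts. Levels are given as CPM, counts scaled to a common library total by TMM factors, which rest on the bulk of the genes, and 3 counts, the most that a count of 0 allows, correspond to 0.181 to 0.188 CPM. The deleted gene was checked first. Ybx1 was at 1021, 528 and 1220 CPM in WT and at 83.1, 117 and 147 CPM in cKO, in the order of the replicate numbers. Its level in the library labelled WT replicate 2 was intermediate, below the rest of its group and above every cKO library, which goes partly against that label. The library of cKO replicate 3 also stood apart, with 16296 genes detected against 15677 to 15754 in the others, and with skin and connective tissue transcripts that the other libraries nearly lacked, as given below. The members' log2 fold changes are therefore also given without these libraries where a call or its direction changed, and list medians where they moved most.

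Of the 9 members, 5 passed the filter on low counts and were tested in a fit over 13340 genes (edgeR's quasi-likelihood test): Gsx2, Dlx1, Dlx2, Dlx5 and Lhx6. All 5 had a higher mean in cKO, yet none passed the threshold. After Benjamini-Hochberg adjustment over all genes tested, the edgeR p-value of each was 0.99995, and 0% of all genes passed an adjusted 0.05 in either direction. Ybx1, the deleted gene, missed that threshold too (log2 fold change -2.998, edgeR adjusted p of 0.128). The lack of adjusted calls in this fit therefore says little of the members. DESeq2 and limma-voom also gave 0 members with an adjusted p-value under 0.05, while DESeq2 called 4 of all genes. At an unadjusted p-value under 0.05, 2 of the 5 were higher in cKO (Dlx1 and Dlx5), against 1.75% of all genes tested, and 0 were lower, against 1.81%. The median log2 fold change of the 5 (cKO minus WT) was 0.79, beside 0.0019 for all genes, of which 50.8% were positive. Gsx2, Dlx1, Dlx2 and Dlx5 varied together over the libraries, with Pearson correlations of log2 CPM of 0.906 to 0.987. Their shared direction thus does not count as separate observations. Gsx1, Dlx6, Nkx2-1 and Lhx8 stayed below the filter and are described by their counts.

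**Figure D1:**
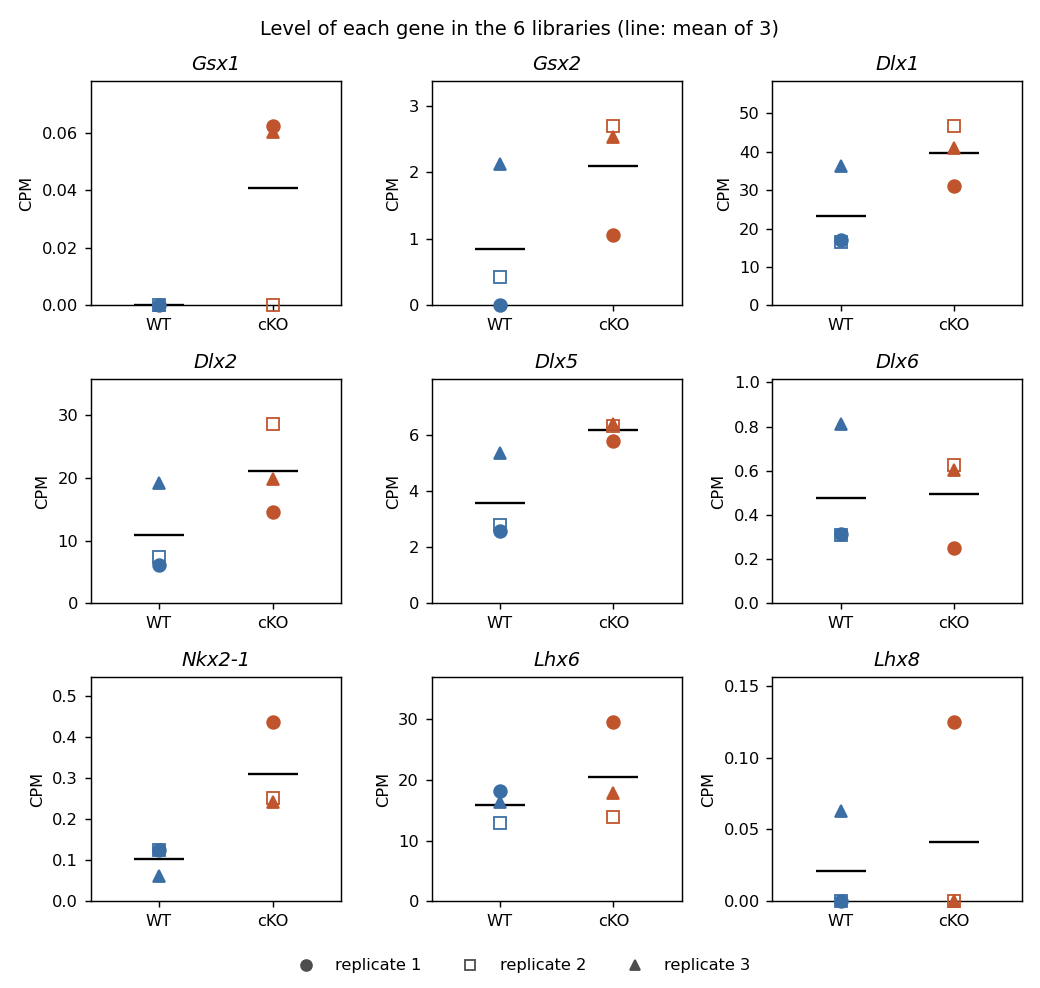
CPM of each of the 9 genes in the 3 WT and 3 cKO libraries, with one symbol per replicate number and a line at the group mean (each panel has its own linear axis). WT replicate 3 lies well above the other WT libraries for Gsx2 and the Dlx genes but not for Lhx6, for which cKO replicate 1 is the high library.

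The Gsx genes stand at the start of the ventral programme, in progenitors that do not enter the cortex. Gsx2 was at 0, 0.434 and 2.13 CPM in WT replicates 1 to 3 and at 1.06, 2.70 and 2.53 CPM in cKO replicates 1 to 3. These are 0, 7 and 34 counts against 17, 43 and 42. WT replicate 1 held none and WT replicate 3 exceeded cKO replicate 1, so the groups overlapped. The mean was 0.853 ± 1.12 CPM in WT and 2.10 ± 0.901 in cKO (SD, n = 3 each). On the log2 scale cKO was higher by 1.29 (standard error 0.89, edgeR unadjusted p = 0.184). The WT spread was larger than the WT mean itself, and the size of the difference rests on it: without WT replicate 3 the log2 fold change was 3.22, and without WT replicate 1 it was 0.72. Gsx1, which acts beside Gsx2 in the eminences, had 1 count in each of cKO replicates 1 and 3 and 0 in the other libraries, which is below the floor of 3 counts everywhere.

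Dlx1 and Dlx2, which follow Gsx2 and commit ventral progenitors to the GABAergic fate, are described next. Dlx1 was at 17.1, 16.6 and 36.3 CPM in WT replicates 1 to 3 and at 31.0, 46.7 and 41.0 CPM in cKO replicates 1 to 3. WT replicates 1 and 2 lay low and together, while WT replicate 3 lay inside the cKO range. The mean of Dlx1 was 23.3 ± 11.2 CPM in WT and 39.6 ± 7.96 in cKO (SD, n = 3 each), 1.70-fold higher. On the log2 scale cKO was higher by 0.76 (standard error 0.31, edgeR unadjusted p = 0.0371). Dlx1 ranked 344 among the 13340 genes by this p-value. The highest WT library held 2.19 times the lowest, more than the difference between the group means.

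Dlx2 had the same order of libraries among the WT samples as Gsx2. It was at 6.09, 7.37 and 19.2 CPM in WT replicates 1 to 3 and at 14.6, 28.5 and 19.9 CPM in cKO replicates 1 to 3. WT replicate 3 again exceeded cKO replicate 1 and nearly reached cKO replicate 3. The mean was 10.9 ± 7.22 CPM in WT and 21.0 ± 7.04 in cKO (SD, n = 3 each). On the log2 scale cKO was higher by 0.95 (standard error 0.43, edgeR unadjusted p = 0.0582). Within WT, the highest library held 3.15 times the lowest, against a 1.93-fold difference between the genotypes.

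Dlx5 and Dlx6 lie downstream of Dlx1 and Dlx2 and stay on as the neurons differentiate and migrate. Dlx5 was at 2.58, 2.79 and 5.38 CPM in WT replicates 1 to 3 and at 5.80, 6.34 and 6.40 CPM in cKO replicates 1 to 3. Among the 5 tested members, Dlx5 was the only one whose 3 cKO libraries all lay above all WT libraries, which was the case for 4.21% of all genes tested, and 0 members had all cKO libraries below all WT libraries, against 4.83% of all genes. Its cKO libraries were within 1.1-fold of each other, whereas the WT libraries spanned 2.09-fold, with WT replicate 3 next to the cKO range. The mean was 3.58 ± 1.56 CPM in WT and 6.18 ± 0.326 in cKO (SD, n = 3 each). On the log2 scale cKO was higher by 0.79 (standard error 0.28, edgeR unadjusted p = 0.0231, rank 185). Dlx6 had 5, 5 and 13 counts in WT and 4, 10 and 10 in cKO (replicates 1 to 3). The sums were 23 and 24 counts, and after scaling the cKO to WT ratio was 1.03 with an exact conditional 95% interval of 0.558 to 1.92. That interval covers counting error only. Dlx6 thus showed no detectable difference at this depth, although its lowest count was in cKO replicate 1 and its highest in WT replicate 3.

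The unadjusted calls of Dlx1 and Dlx5 depended on single libraries. For Dlx1, leaving out WT replicate 1 gave a log2 fold change of 0.58 and an edgeR unadjusted p-value of 0.116. Removal of WT replicate 2 gave 0.57 and an edgeR unadjusted p-value of 0.122, of cKO replicate 2 0.62 and 0.114, and of cKO replicate 3 0.73 and 0.0683. Dlx5 lost its call in the same edgeR fits when WT replicate 1 (0.60, p-value 0.0750), WT replicate 2 (0.63, p-value 0.0839) or cKO replicate 2 (0.77, p-value 0.0559) was absent. Leaving out WT replicate 3 moved both the other way, to a log2 fold change of 1.23 for Dlx1 (edgeR unadjusted p-value of 0.000332) and 1.20 for Dlx5 (0.000563). The same removal took Dlx2 to 1.64 (edgeR unadjusted p-value of 0.000955). Without both WT replicate 2 and cKO replicate 3, the log2 fold changes of Dlx1, Dlx2 and Dlx5 were 0.54, 0.77 and 0.61, with edgeR p-values of 0.181, 0.195 and 0.120. The direction was positive for each Dlx gene tested in every one of these fits, and the largest single influence was WT replicate 3.

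**Figure D2:**
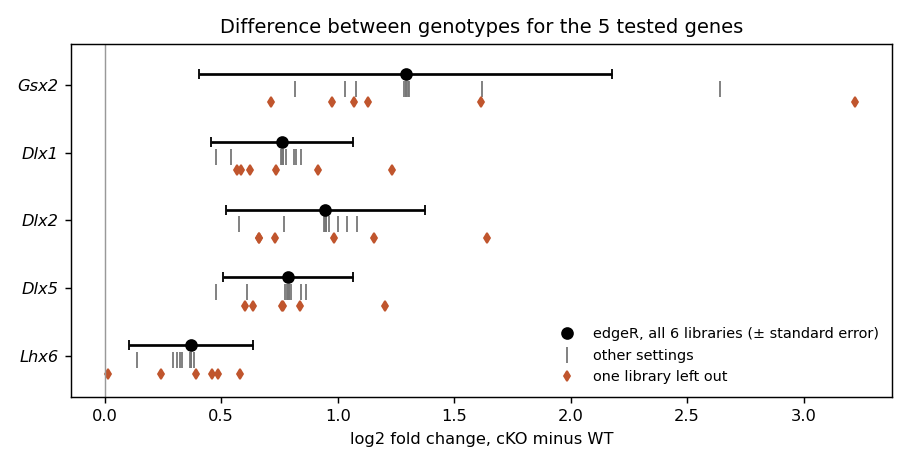
Log2 fold change (cKO minus WT) of the 5 tested genes, with a black point and bar for the edgeR estimate ± standard error, grey ticks for other settings and red diamonds for fits with one library left out. No estimate falls below 0, and the farthest diamond for Gsx2 (3.22), Dlx2 (1.64), Dlx1 (1.23) and Dlx5 (1.20) is the fit without WT replicate 3, whereas for Lhx6 the lowest one (0.016) is the fit without cKO replicate 1.

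The MGE members gave another order of libraries. Lhx6, which keeps MGE-born interneurons on their path into the cortex, was at 18.2, 12.9 and 16.3 CPM in WT replicates 1 to 3 and at 29.5, 13.9 and 17.8 CPM in cKO replicates 1 to 3. Only cKO replicate 1 stood above the WT range, and WT replicate 3 was in the middle of its group. The mean of Lhx6 was 15.8 ± 2.70 CPM in WT and 20.4 ± 8.12 in cKO (SD, n = 3 each). On the log2 scale cKO was higher by 0.37 (standard error 0.27, edgeR unadjusted p = 0.204). Without cKO replicate 1 the log2 fold change was 0.016 (edgeR unadjusted p-value of 0.931), so the difference in Lhx6 rested on that library. Leaving out cKO replicate 2 instead moved Lhx6 the other way, to 0.58 (edgeR unadjusted p-value of 0.0447).

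Nkx2-1, the factor that sets MGE identity in progenitors, was nearly absent from these libraries. It had 2, 2 and 1 counts in WT and 7, 4 and 4 in cKO (replicates 1 to 3), and each cKO library was above each WT library. Such separation held for 4.21% of all genes tested, among which Nkx2-1 itself was not. Its WT counts all lay within the floor of 3 counts. The sums of 5 and 15 counts gave a cKO to WT ratio of 2.97, with an exact conditional 95% interval of 1.03 to 10.4 for counting error only. An exact two-sided permutation test of the CPM values gave p = 0.1, the smallest that 3 against 3 libraries allow (0.2 after adjustment over the 2 sparse members tested this way, the other being Dlx6 with an exact p of 1.0). Lhx8, a factor of cholinergic and pallidal neurons, had 1 count in WT replicate 3, 2 counts in cKO replicate 1 and 0 elsewhere, which is below the floor in every library.

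Per transcript length, the members can be ranked against each other by the deposited TPM values (transcript shares, scaled for length). Over the 6 libraries Dlx1 had the highest level (25.6 ± 9.79 TPM, SD), followed by Dlx2 (15.2 ± 7.78), Lhx6 (12.3 ± 4.42) and Dlx5 (9.10 ± 3.24). Gsx2 came next (2.21 ± 1.69 TPM), then Dlx6 (1.28 ± 0.579) and Nkx2-1 (0.198 ± 0.134), while Lhx8 (0.040) and Gsx1 (0.030) were close to 0. Dlx1 was above Dlx2 in 6 of 6 libraries and Dlx5 was above Gsx2 in 6 of 6. Dlx2 was above Lhx6 in only 3 of 6 and Lhx6 above Dlx5 in 4 of 6, so these neighbours did not separate beyond their spread. Of the 5 members that migrating interneurons keep, 4 thus held the top of the order, and Gsx2 was the most abundant of the eminence markers.

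Ratios of counts within a library do not depend on how libraries are scaled, and the more abundant Dlx genes were compared with Lhx6 in this way. The ratio of Dlx1 to Lhx6 was 0.938, 1.29 and 2.23 in WT replicates 1 to 3 and 1.05, 3.36 and 2.31 in cKO replicates 1 to 3, a 3.58-fold span. Low ratios occurred in both genotypes (WT replicates 1 and 2, cKO replicate 1), and so did high ones. The ratio of Dlx2 to Lhx6 was 0.335, 0.572 and 1.18 in WT and 0.495, 2.05 and 1.12 in cKO, a 6.13-fold span. That of Dlx5 to Lhx6 spanned 3.22-fold. Among the Dlx genes themselves the ratio of Dlx2 to Dlx1 spanned 1.71-fold and that of Dlx5 to Dlx1 1.38-fold, whereas that of the sparse Dlx6 to Dlx5 spanned 3.52-fold. Exact two-sided permutation tests of the log2 ratios to Lhx6 found differences of 0.53 for Dlx1 (p = 0.4), 0.78 for Dlx2 (p = 0.5) and 0.56 for Dlx5 (p = 0.4), each with an adjusted p of 0.5 over the 3 tests and a smallest possible p of 0.1. The genotypes overlapped in each of these ratios, and the difference between their means was smaller than the SD within either genotype.

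**Figure D3:**
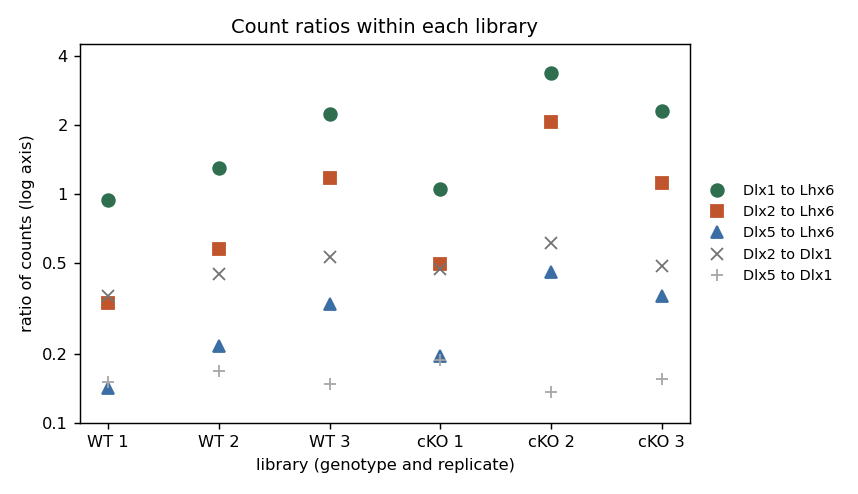
Ratio of counts of 2 genes within each library, on a log axis, for the 3 WT and 3 cKO libraries. Ratios of Dlx1, Dlx2 and Dlx5 to Lhx6 move together over a 3.22-fold to 6.13-fold span and are lowest in WT replicate 1, whereas Dlx2 to Dlx1 and Dlx5 to Dlx1 stay within 1.71-fold and 1.38-fold. The ratios to Lhx6 share their denominator, so part of their joint movement is built in.

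Summed by class, the 4 Dlx genes reached 26.1, 27.1 and 61.7 CPM in WT replicates 1 to 3 and 51.7, 82.2 and 67.9 CPM in cKO replicates 1 to 3, which overlapped. The MGE members Nkx2-1, Lhx6 and Lhx8 summed to 18.34, 13.01 and 16.44 CPM in WT and 30.08, 14.18 and 18.04 in cKO, nearly all of it Lhx6. The 5 members kept by migrating interneurons summed to 44.3, 40.0 and 78.0 CPM in WT and 81.2, 96.2 and 85.7 in cKO, so that these sums did not overlap, by the margin between 78.0 and 81.2 CPM. Such separation was not particular to them, since the sums of other lists described below were also apart, in either direction. Within that class a high Dlx sum in cKO replicate 2 and a high Lhx6 level in cKO replicate 1 lay in different libraries. The median log2 fold change was 0.77 for its 4 tested members.

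Other genes of the same territories were read from fixed lists. Of 14 other transcription factors of the LGE and striatum, 13 were tested, of which 10 had a positive and 3 a negative log2 fold change, and 0 reached an unadjusted edgeR p-value under 0.05 in either direction (median log2 fold change 0.24). Their summed CPM was 632, 654 and 739 in WT and 666, 805 and 688 in cKO (replicates 1 to 3). Meis2 alone gave 418, 439 and 485 of it in WT and 455, 526 and 449 in cKO. As for Gsx2, Dlx1 and Dlx2, cKO replicate 2 was the highest library for 7 of the 13, and without it the median was 0.052 (0.13 without cKO replicate 3). Some genes of low level, named after their values were seen, were also at 0 or lowest in WT replicate 1 or 2. Six3, a factor of early striatal neurons, was at 0, 1.36 and 1.62 CPM in WT and 0.874, 4.45 and 2.35 in cKO, and Isl1, a factor of striatal projection neurons, was at 0, 0.496 and 0.50 CPM in WT and 0.312, 0.690 and 0.664 in cKO. Sp9, which acts with the Dlx genes, was at 4.90, 3.22 and 8.19 CPM in WT and 8.05, 9.35 and 8.21 in cKO (log2 fold change 0.65, edgeR unadjusted p = 0.0612). In WT replicate 1, Gsx2, Six3 and Isl1 were all at 0 counts. WT replicate 2 was above cKO replicate 1 for Six3 and Isl1, unlike for the tested Dlx genes. Whether LGE transcripts had a part in the difference between genotypes was not tested.

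The other MGE factors (8 of 12 tested) split into 4 positive and 4 negative log2 fold changes with a median of 0.0030, and 0 of the 8 were called at an unadjusted edgeR p-value under 0.05 in either direction. Their sum was 650 to 682 CPM in WT and 598 to 647 CPM in cKO, lower in cKO without overlap. Most of it was Zeb2, Sox6 and Satb1 (means of 313, 194 and 124 CPM in WT), so it says little of the sparser genes. Of those, Olig2 had means of 2.70 CPM in WT and 4.02 in cKO, and Npas1 1.27 and 0.885. Of the 3 factors of the caudal ganglionic eminence, a further source of interneurons, 1 was positive and 2 were negative, with a median of -0.069 and 0 called. The upstream patterning genes (4 of 6 tested) had a median log2 fold change of 0.35 (0.14 without cKO replicate 3 and 0.52 without WT replicate 2) with 0 called, and Shh, the ventral signal itself, was at 0.0628 CPM or less, that is at most 1 count, in every library. The transcription factors of the cortex, which mark the excitatory lineage, had 4 positive and 9 negative log2 fold changes (13 tested, median -0.05, but 0.05 without cKO replicate 3). Only Lhx9 among them was called at an unadjusted edgeR p-value under 0.05, with 75.1, 59.9 and 54.1 CPM in WT and 52.1, 49.1 and 49.5 in cKO (log2 fold change -0.33, standard error 0.12, edgeR unadjusted p = 0.0255). Their sum was 3883 to 4629 CPM in WT and 3587 to 4557 in cKO, so cortical transcripts were abundant in every library. Abundant genes such as Neurod6 (means of 857 CPM in WT and 840 in cKO) weigh most in this sum. It therefore says little of small amounts of other tissue, and whether libraries differed in eminence tissue was not tested.

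**Figure D4:**
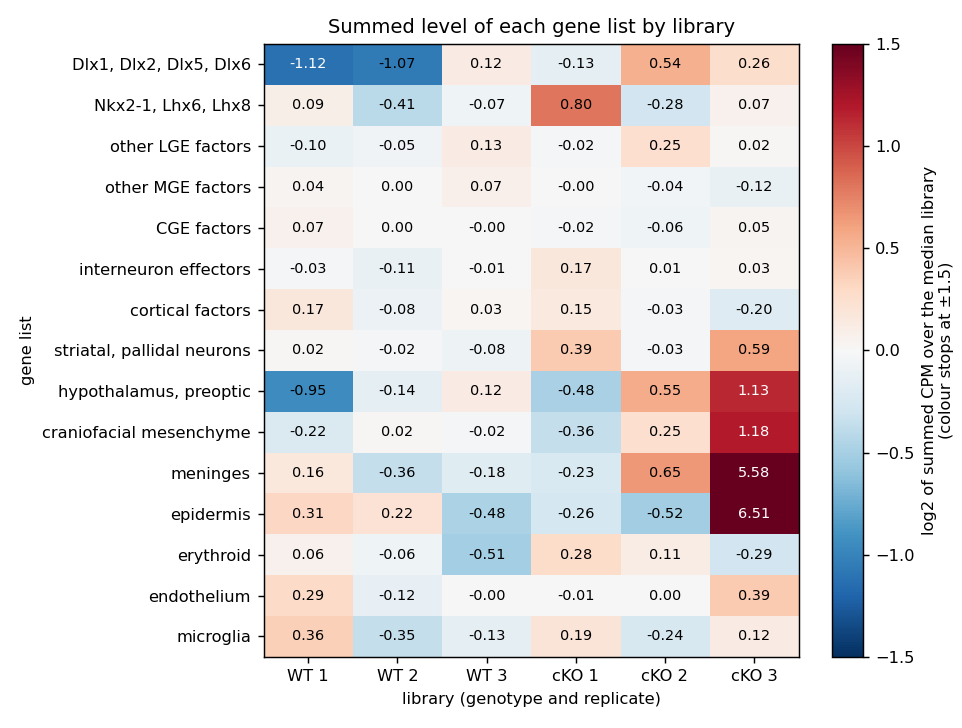
Summed CPM of each gene list in each of the 6 libraries, as the log2 ratio to the median library (red higher, blue lower, colour limited to ±1.5, values printed in the cells). The Dlx genes are low in WT replicates 1 and 2 (-1.12 and -1.07), the MGE members are high in cKO replicate 1 (0.80), and meninges (5.58) and epidermis (6.51) stand out in cKO replicate 3.

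Effector genes of interneurons, which make and handle GABA or serve as peptide and migration markers, included Sst, the gene ranked 1 by p-value among all genes tested. All 14 were tested, 11 had a positive log2 fold change, 6 were higher and 1 was lower at an unadjusted edgeR p-value under 0.05 (against 1.75% and 1.81% of all genes), and the median was 0.30. Their sum was 320 to 343 CPM in WT and 347 to 388 CPM in cKO, higher in cKO without overlap. None had an adjusted p-value under 0.05. Sst, the neuropeptide somatostatin of MGE-born interneurons, was at 9.67, 7.75 and 9.25 CPM in WT and 20.3, 19.3 and 19.7 CPM in cKO (replicates 1 to 3), higher by 1.15 on the log2 scale (standard error 0.11, edgeR adjusted p of 0.0953). For Sst, WT replicate 3 lay with the other WT libraries, unlike for the Dlx genes. Npy, another interneuron peptide, was at 1.63, 1.98 and 1.69 CPM in WT and 3.43, 2.70 and 2.78 in cKO (log2 fold change 0.74, standard error 0.21, edgeR unadjusted p = 0.00842). Its WT libraries also lay together.

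The genes of GABA synthesis and storage lay between these patterns. Gad1, which makes GABA, was at 8.79, 7.37 and 10.1 CPM in WT and 14.98, 10.48 and 13.39 in cKO (log2 fold change 0.56, standard error 0.17, edgeR unadjusted p = 0.0113). For Gad1, cKO replicate 1 was highest, the library in which Lhx6 was highest too, and cKO replicate 1 was the highest library for 8 of the 14 effector genes. Other calls, named after their values were seen, were Gad2 and Calb1 among the higher genes and Nrp2, a receptor of migrating neurons, as the lower one. Calb1, a calcium-binding protein, was at 1.19, 0.991 and 1.19 CPM in WT and 1.93, 1.38 and 4.71 in cKO, so that its highest value was in cKO replicate 3, the library with skin and connective tissue transcripts. Gad2, the second enzyme of GABA synthesis, was at 14.6, 13.8 and 24.8 CPM in WT and 25.6, 24.8 and 25.3 in cKO, with WT replicate 3 at the cKO level as for the Dlx genes. Slc32a1, the vesicular GABA transporter, was at 5.65, 4.71 and 4.38 CPM in WT and 7.11, 6.02 and 5.37 in cKO, and its groups overlapped.

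Some Dlx genes are also active outside the brain, in mesenchyme of the face and in skin, so markers of those tissues were read beside them. The sum of 11 craniofacial mesenchyme genes was 32.4 to 38.2 CPM in WT and 29.4, 45.0 and 85.7 in cKO replicates 1 to 3. Dlx3, a paralog that the forebrain lacks, was at 3.50 CPM in cKO replicate 3 and at 0.0628 CPM or less in the other libraries. Twist1, a mesenchyme factor, was at 16.8 CPM in cKO replicate 3 and at 0.188 CPM or less elsewhere. The sum of 8 meningeal genes was 8.49 to 12.1 CPM in WT and 9.30, 17.1 and 518 in cKO, and Col1a1, Col1a2 and Col3a1 were higher at an unadjusted edgeR p-value under 0.05. The median log2 fold change of that list was 4.06 with cKO replicate 3 and 0.21 without it. The sum of 6 epidermal genes was 2.25 to 3.90 CPM in WT and 2.621, 2.195 and 285.5 in cKO, with Krt5, a basal keratin, at 130 CPM in cKO replicate 3. In cKO replicate 2, the highest library for Dlx1 and Dlx2, the mesenchymal and meningeal sums were also above those of every WT library. Nearly all of that mesenchymal sum was Prrx1 (41.65 CPM), as in WT (28.77, 35.07 and 34.94 CPM). Twist1 was at 0.13 CPM in cKO replicate 2, and the epidermal sum there was the lowest of the 6 libraries. Among meningeal genes, Col1a1 was at 6.02 CPM in that library, against 2.19 CPM or less in WT. Without cKO replicate 3 the log2 fold changes of Dlx2, Dlx5 and Dlx1 were 0.98, 0.76 and 0.73, against 0.95, 0.79 and 0.76 with it, while the unadjusted call of Dlx1 was lost (edgeR unadjusted p-value of 0.0683). The part of these transcripts in the differences was not tested.

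Genes with a pattern most like that of the members over the 6 libraries were sought among tested genes outside the members and all the fixed lists. The measure was the Pearson correlation of log2 CPM with the mean standardised log2 CPM of the 5 tested members. Gad2 and the other genes of the lists were thus not ranked. The ranking is a description over 6 libraries that share 2 genotypes, and 48 of the 13250 genes compared (0.362%) had a correlation above 0.9. Lhx6 varied apart from the members averaged with it, with correlations of -0.05, 0.10, 0.005 and 0.28 to Gsx2, Dlx1, Dlx2 and Dlx5. The mean profile had cKO replicate 1 (0.54) above WT replicate 3 (0.36), unlike Gsx2, Dlx1 and Dlx2. The 10 closest were Gm2004 (0.997), Lyrm9 (0.991), Ppp1r3d (0.977), Brms1l (0.977), Cuta (0.974), Tagln2 (0.974), Gsto1 (0.973), Katnbl1 (0.962), Vstm2l (0.962) and Wnt7a (0.957). Gm2004 was at 4.46, 4.59 and 7.88 CPM in WT replicates 1 to 3 and at 8.11, 8.59 and 8.99 CPM in cKO replicates 1 to 3, with WT replicate 3 next to the cKO libraries as for Dlx5. Several others on this list moved along the same order by far smaller amounts, such as Brms1l, which was at 45.98 to 50.44 CPM in WT and 50.6 to 51.8 in cKO.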

How the data were processed

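RNA sequencing of E13.5 mouse cortex was compared between 3 WT and 3 Ybx1 cKO libraries, with groups and replicate numbers from the sample titles. RNA had been extracted with Trizol and sequenced by the authors as mRNA libraries on DNBSEQ. The submitters' processing notes name HISAT2 2.2.1, Bowtie2 2.4.5, RSEM 1.3.1 and GRCm38. The authors deposited estimated counts per gene without depth normalisation (10.9% not whole) and TPM values scaled for transcript length and library. FPKM values, deposited by the authors scaled for length and depth, and 6 columns of group averages were not used.

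Estimated counts were rounded and genes kept by filterByExpr (minimum count 10, minimum total count 15), which left 13340 of 17348. The test was edgeR's quasi-likelihood test (edgeR 4.0.16, R 4.3.3) with TMM factors (0.9865 to 1.029), genotype as the only term and Benjamini-Hochberg adjustment over all genes tested. The common dispersion was 0.0169. Standard errors were derived from the F statistic. The test was tested on simulated data first. Sparse members and count ratios were compared by exact tests (scipy 1.17.1). Sequences and coordinates came from GENCODE M21 transcripts of GRCm38.

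The members were taken by symbol, with no value in the rule, but they, the lists and the alternatives were chosen with earlier results of these data known. Genes named were the members, Ybx1, up to 4 genes per list with an unadjusted p-value under 0.05 (lowest first), and markers that set a library apart. The 10 tested genes on no list that were most like the members were named too. One counted gene of the interneuron effector list is not named here. The series text speaks of 3 sequencing batches without saying which libraries each holds, so no within-batch value could be given. Alternatives were DESeq2 1.42.0, limma-voom (limma 3.58.1) with and without quality weights, RLE or upper-quartile factors, a stricter filter (at least 10 counts in every library) or none, robust empirical Bayes, limma on log2(TPM + 1), the replicate block, each library left out in turn, and WT replicate 2 and cKO replicate 3 left out together.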

Additional observations from a re-analysis of the deposited data

How the results depend on the processing

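Over 17 alternatives the log2 fold changes of Gsx2 (16, since it was removed by requiring at least 10 counts in every library), Dlx1, Dlx2, Dlx5 and Lhx6 stayed positive, and none had an adjusted p-value under 0.05 (lowest 0.502). The median of the tested members ranged from 0.48 (limma-voom with quality weights) to 1.23 (without WT replicate 3). The number of members higher at an unadjusted p-value under 0.05 was 2 in the reported fit, beside 234 of all genes. With limma-voom and quality weights it was 0, beside 648 of all genes. Without both WT replicate 2 and cKO replicate 3 it was 0, beside 105 of all genes. With one library left out, the number of members ranged from 0 (without WT replicate 1 or 2, beside 212 and 195 of all genes) to 4 (without WT replicate 3, beside 121). With the replicate block it was 5, and the block took all genes from 234 higher and 242 lower to 476 and 614. Libraries of the same number had deviations correlated at 0.41, 0.31 and -0.02, against -0.43 to 0.26 for unlike numbers. These values do not settle whether the numbers mark pairs, and the reported fit did not take them as pairs. Over all alternatives, 105 to 648 genes were higher and 118 to 656 lower at that threshold, and 0 to 4 had an adjusted p-value under 0.05. The cause of these changes was not tested. Counting error limits Gsx1, Lhx8, Nkx2-1 and Dlx6 at this depth, the spread among WT libraries limits Gsx2 and the other Dlx genes, and the spread among cKO libraries limits Lhx6.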

Other observations

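Markers of neurons that the eminences make but that stay in the basal forebrain were read as well. The most abundant was Ppp1r1b, with means of 15.49 CPM in WT and 18.45 in cKO, beside 15.8 and 20.4 for Lhx6. Of 10 genes of striatal and pallidal neurons, 5 were tested, 4 had a positive and 1 a negative log2 fold change, 0 had an unadjusted edgeR p-value under 0.05, and the median was 0.25 (0.10 without cKO replicate 3, 0.50 without WT replicate 2 and 0.034 without both). Their summed CPM was 24.1 to 25.8 in WT and 33.5, 25.0 and 38.4 in cKO replicates 1 to 3, so that cKO replicate 2, the highest library for the sum of the Dlx genes, was not raised for them. Genes of the hypothalamus and preoptic area summed to 1.13 to 2.38 CPM in WT and 1.56 to 4.77 CPM in cKO, with 1 gene above the filter.

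The sums of the remaining non-neural lists overlapped between the genotypes. Erythroid genes summed to 338 to 502 CPM in WT and 394 to 584 in cKO, endothelial genes to 60.4 to 80.3 and 65.2 to 85.8 CPM, and microglial genes to 19.0 to 31.0 and 20.6 to 27.6 CPM. Choroid plexus genes summed to at most 0.690 CPM in any library. WT replicate 3, the WT library with high Dlx levels, had the lowest erythroid sum of the 6 libraries and lay within the range of the other libraries for the endothelial and microglial sums.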
